A study of Homo sapiens with 2 samples.

Results

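The 52 genes described here encode the secreted WNT ligands, their receptors, their antagonists, the R-spondin system that adjusts receptor number, and 5 feedback targets of the pathway. They were chosen by gene family and role, with earlier results of these data known, by a rule that sets no threshold on a measured value. The ligand list does not hold every human WNT gene. Of the 52 genes, 51 had a row among the 17397 genes of the deposited tables, and DKK4 was not analysed here. The list comprised 18 WNT ligands, 10 frizzled receptors, 4 co-receptors, 9 secreted antagonists of the SFRP and DKK families, 6 R-spondin and LGR genes, and the feedback targets AXIN2, LEF1, NKD1, RNF43 and ZNRF3.

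RNA-Seq was available for 1 library of wild-type (WT) cells and 1 library of MEIS2-/- cells, both from the human embryonic stem cell line H1 at day 4 of induction toward blood. Both cultures had received 50 ng/ml activin A with 40 ng/ml BMP4 for 2 days, followed by 40 ng/ml VEGF with 50 ng/ml bFGF for 2 days, and no WNT protein or WNT inhibitor is named in the labels. The MEIS2-/- line was derived by CRISPR/Cas9 from a single edited cell, and the labels do not say which homozygous clone was sequenced. The deletion was made to ask whether MEIS2, a homeodomain transcription factor, acts in the step from mesoderm to hemogenic endothelium and blood. Values are FPKM, fragment numbers divided by transcript length and by the size of the library, so levels can be compared between genes within a library. Each genotype had 1 library, so no difference could be set against replicate spread or tested, and every value below describes these 2 cultures.

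WNT ligands are lipid-modified secreted proteins. On the canonical branch they bind a frizzled receptor together with LRP5 or LRP6, which stops the destruction complex from degrading beta-catenin, so that beta-catenin enters the nucleus and joins TCF and LEF factors. Other ligands, such as WNT5A and WNT11, act largely through ROR receptors and the planar polarity branch without beta-catenin. In differentiating stem cells WNT signaling takes part in forming primitive streak and mesoderm, and it is also active when hemogenic endothelium is specified.

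MEIS2 itself was at 10.85 FPKM in the WT library and 3.44 FPKM in the MEIS2-/- library, a level over the whole transcript that does not show the edit. The labelled state of the cells was checked with marker lists. Of 14 endothelium genes, 12 reached 1 FPKM in either library and were compared. In MEIS2-/- cells 11 of them were lower, 7 by 2-fold or more (58.3%, against 7.97% of all genes compared in this way). SOX17 alone of the 12 was higher, at 141.01 FPKM in WT and 264.03 FPKM in MEIS2-/- cells, and it also counts in the endoderm list. The summed level of the 14 genes was 870.53 FPKM in WT and 441.02 FPKM in MEIS2-/- cells. Of these, KDR was at 323.77 and 61.98 FPKM, CDH5 at 15.20 and 5.02 FPKM, and CD34 at 21.80 and 11.36 FPKM, in WT and MEIS2-/- cells in that order. Of 12 blood genes 7, among them PTPRC at 0.45 and 0.89 FPKM, were below 1 FPKM in both libraries. In MEIS2-/- cells 4 of the other 5 were lower, MYB barely so at 2.26 and 2.20 FPKM. HBE1, at 0.42 and 2.06 FPKM, was higher and reached 1 FPKM only in MEIS2-/- cells. By 2-fold or more 1 of the 5 was lower and 1 higher (20% each, against 7.97% and 7.84% of all compared genes). The blood list summed to 18.56 and 14.40 FPKM. The summed level of 12 mesenchyme genes was 1065.33 and 526.81 FPKM, and of the 11 compared 9 were lower and 2 higher in MEIS2-/- cells. The 10 primitive streak genes summed to 101.58 and 61.84 FPKM, with 7 lower and 3 higher. The 12 endoderm genes summed to 639.31 and 1353.11 FPKM, most of it APOA1, at 401.38 and 879.13 FPKM. In MEIS2-/- cells 11 of them were higher and 1 lower, with 7 at least 2-fold higher (58.3%, against 7.84% of all compared genes). Of these, 3 reached 1 FPKM only in MEIS2-/- cells. Among the 9 at 1 FPKM or more in both libraries 4 were at least 2-fold higher, against 5.72% of all such genes. The 10 listed genes of undifferentiated cells summed to 396.97 and 1709.42 FPKM, most of it POU5F1, whereas SOX2 was at 0.09 and 0.15 FPKM. The MEIS2-/- culture thus held less mRNA of endothelium and mesenchyme genes and more of endoderm genes, POU5F1 and NANOG. The part of these cell mixtures in the differences below was not tested, and in bulk samples fewer cells of a type cannot be told apart from less RNA per cell.

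The log2 fold change is that of the MEIS2-/- value over the WT value, each raised by 0.1 FPKM, and it is too small for genes near 0. A gene was compared when either library had it at 1 FPKM or above, which held for 13075 genes with a median log2 fold change of 0.12. Of the 52 listed genes 41 were compared. Among them 4 were lower by 2-fold or more in MEIS2-/- cells (9.76%, against 7.97% of all compared genes) and 9 were at least 2-fold higher (22%, against 7.84% of all compared genes). The lower genes were WNT16, FZD2, FZD7 and RSPO4, and the higher genes were WNT2, WNT2B, WNT5B, WNT7A, SFRP2, DKK1, DKK2, AXIN2 and RNF43. WNT2, WNT2B, WNT7A and DKK2 entered the comparison only through their MEIS2-/- value and WNT16 only through its WT value, so each of these 5 had to differ to some degree. Restricted to genes that reached 5 FPKM in either library, 3 of 32 listed genes were at least 2-fold lower, against 6.41% of all such genes. At least 2-fold higher were 6 of 32, against 5.94%. This filter selects in the same way: WNT2B, DKK1 and RNF43 reached 5 FPKM only in the MEIS2-/- library and RSPO4 only in the WT library. With 1 FPKM required in both libraries, a setting chosen after seeing the data, 36 listed genes remained. At least 2-fold lower were 3 of them, against 5.8% of all such genes, and at least 2-fold higher 5, against 5.72%. The median over the 41 genes was −0.07, near that of all compared genes, with differences spread from −1.85 for RSPO4 to 3.27 for WNT2. The highest place depended on the pseudocount, since DKK2 exceeded WNT2 at 0.01 FPKM (3.74 against 3.56) and WNT2B did at 1 FPKM.

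**Figure D1:**
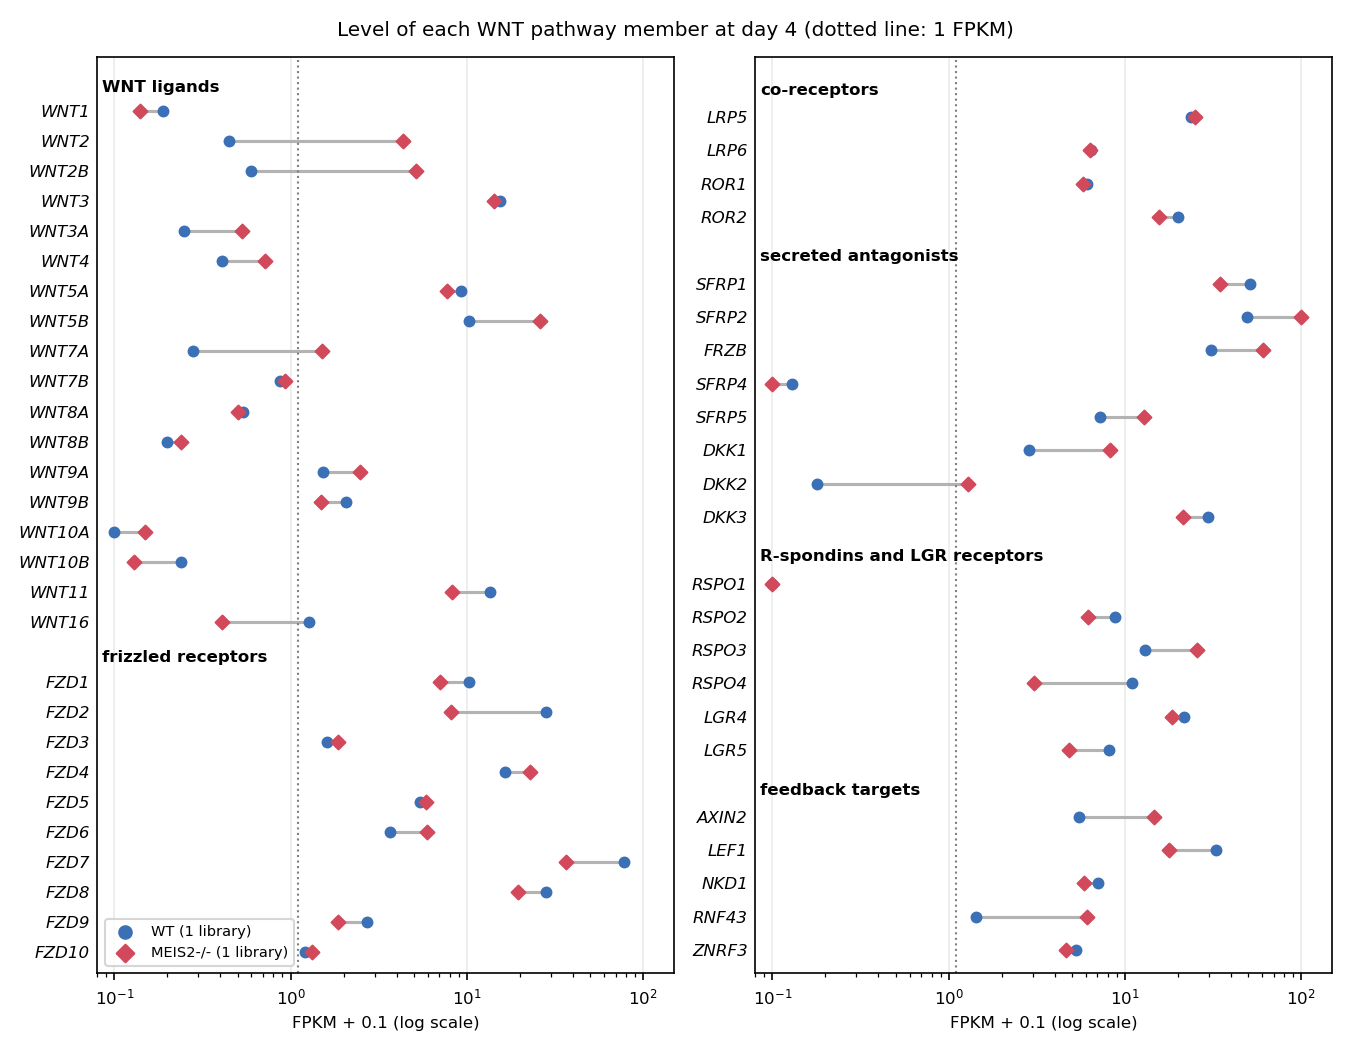
FPKM plus 0.1 of each of the 51 listed genes on a logarithmic axis, grouped by role, with a blue circle for the WT library and a red diamond for the MEIS2-/- library (1 library each, so no error bars). The co-receptors nearly coincide in the 2 libraries, whereas WNT2, WNT2B, WNT7A and DKK2 cross the dotted line at 1 FPKM from left to right and WNT16 crosses it from right to left.

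Transcripts of 4 ligands made up most of the WNT ligand mRNA in WT cells. WNT3, a canonical ligand of the primitive streak, was at 15.35 FPKM in WT and 14.09 FPKM in MEIS2-/- cells. WNT11, a non-canonical ligand of early and cardiac mesoderm, was at 13.41 and 8.16 FPKM. WNT5A, the best known non-canonical ligand, was at 9.12 and 7.62 FPKM. These 3 were lower in MEIS2-/- cells, each by less than 2-fold. The log2 fold change was −0.71 for WNT11, and smaller for WNT3 (−0.12) and WNT5A (−0.26). WNT5B, the close relative of WNT5A, was at 10.24 FPKM in WT and 25.85 FPKM in MEIS2-/- cells, with a log2 fold change of 1.33, and of the ligands above 5 FPKM in both libraries it alone was at least 2-fold higher. The 4 genes together gave 86.4% of the summed ligand FPKM in WT cells and 76.3% in MEIS2-/- cells. WNT3 held the largest share in WT cells, at 27.6%, and WNT5B in MEIS2-/- cells, at 35.4%.

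WNT2 and WNT2B, closely related canonical ligands, were low in WT cells and present in MEIS2-/- cells. WNT2 was at 0.35 and 4.23 FPKM, and WNT2B at 0.50 and 5.07 FPKM, with log2 fold changes of 3.27 and 3.11. These sizes depend on the pseudocount: with 1 FPKM they were 1.95 and 2.02, in the opposite order. In GENCODE 29 the exons of WNT2B overlap those of ST7L on the opposite strand, which was at 2.99 and 2.54 FPKM and showed no such difference. WNT7A, a ligand known from limb and neural tissue, was at 0.18 and 1.41 FPKM, with a log2 fold change of 2.43 that became 1.03 with a pseudocount of 1 FPKM. WNT16, known from bone and from blood stem cell emergence in zebrafish, was at 1.18 and 0.31 FPKM and was the only ligand at least 2-fold lower. Both of its values are low, and no depth is known for either library.

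The remaining ligands were low in both libraries. WNT9A was at 1.42 and 2.38 FPKM and WNT9B at 1.96 and 1.38 FPKM. WNT1, WNT3A, WNT4, WNT7B, WNT8A, WNT8B, WNT10A and WNT10B stayed below 1 FPKM in both libraries, with WNT7B highest among them at 0.77 and 0.83 FPKM and WNT10A listed at 0 in WT cells. WNT3A, the canonical ligand most often added to such cultures, was at 0.15 and 0.43 FPKM. WNT3 and WNT9B lie next to each other on chromosome 17, as do WNT10B and WNT1 on chromosome 12, and in neither pair were both genes abundant. The ligands summed to 55.71 FPKM in the WT library and 73.04 FPKM in the MEIS2-/- library, a ratio of 1.31. Without WNT3 and WNT5B, the most abundant ligand of each library, the sum was 30.12 and 33.10 FPKM. The median of the 10 ligands compared, 0.29, turned to −0.19 when 1 FPKM was required in both libraries, so it gives no direction for the class.

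**Figure D2:**
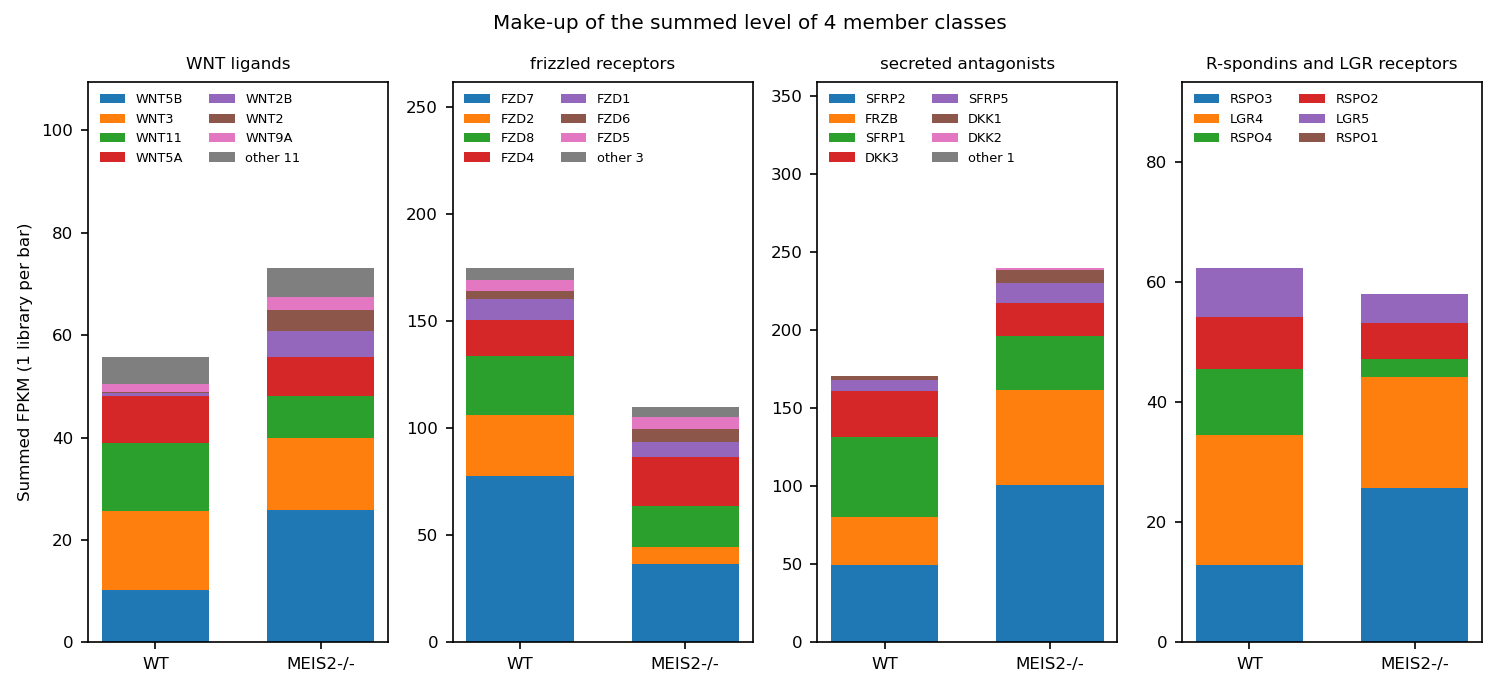
Stacked bars of the summed FPKM of the ligands, frizzled receptors, secreted antagonists and R-spondin and LGR genes in the WT and MEIS2-/- library, split by gene (1 library per bar, no error bars; each panel has its own axis from 0). The ligand bar is taller in MEIS2-/- cells through WNT5B, WNT2B and WNT2, the frizzled bar is shorter through FZD7 and FZD2, and the RSPO3 segment is taller and the RSPO4 segment shorter in MEIS2-/- cells.

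All 10 frizzled receptors were above 1 FPKM in both libraries. FZD7, the main frizzled receptor of human embryonic stem cells, was at 77.82 FPKM in WT and 36.52 FPKM in MEIS2-/- cells, with a log2 fold change of −1.09. FZD2, a receptor that also takes WNT5A, was at 28.15 and 8.01 FPKM, with −1.80. FZD1, the third gene of this subfamily, was at 10.16 and 6.98 FPKM, with −0.54. All 3 were thus lower in MEIS2-/- cells, FZD2 most and FZD1 by less than 2-fold. Their sum was 116.13 FPKM in WT and 51.51 FPKM in MEIS2-/- cells, whereas the other 7 frizzled genes summed to 58.48 and 58.63 FPKM. The total was 174.61 and 110.14 FPKM. FZD1, FZD2 and FZD7 form a sequence subfamily but were summed together after the values were seen, and the even sum of the other 7 hides opposite differences of FZD8 and FZD4.

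Among the other frizzled genes, FZD4, which also serves as the receptor of Norrin in vessels, was at 16.42 and 22.88 FPKM and FZD8 at 27.97 and 19.38 FPKM, with log2 fold changes of 0.48 and −0.53, the latter close to that of FZD1. FZD5, the closest relative of FZD8, was at 5.30 and 5.75 FPKM, and FZD6, a polarity receptor, at 3.55 and 5.87 FPKM. FZD3, FZD9 and FZD10 were between 1.10 and 2.63 FPKM in both libraries. None of these 7 differed by 2-fold. FZD7 made up 44.6% of the frizzled sum in the WT library and 33.2% in MEIS2-/- cells, while FZD4 made up 9.4% and 20.8%. FZD7 was 4.74 times FZD4 in WT cells and 1.6 times FZD4 in MEIS2-/- cells. Exons of FZD4 overlap PRSS23 on the opposite strand, which was at 18.71 and 18.36 FPKM.

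The co-receptors were the class that differed least. LRP5 and LRP6, which carry the canonical signal beside a frizzled receptor, were at 23.75 and 24.91 FPKM and at 6.33 and 6.21 FPKM. Of the ROR receptors, through which WNT5A acts, ROR1 was at 5.98 and 5.71 FPKM and ROR2 at 19.84 and 15.47 FPKM. The 4 log2 fold changes ran from −0.36 to 0.07. LRP5 was 3.75 times LRP6 in WT cells and 4.01 times in MEIS2-/- cells, and ROR2 was 3.32 and 2.71 times ROR1.

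Secreted antagonists were among the most abundant of the listed genes. SFRP1 and SFRP2 encode frizzled-related proteins that bind WNT ligands outside the cell. SFRP2 was at 49.44 FPKM in WT and 100.56 FPKM in MEIS2-/- cells, the highest value of any listed gene, whereas SFRP1 was at 51.20 and 34.39 FPKM. The pair was thus level in WT cells, with SFRP2 at 0.966 times SFRP1, and unequal in MEIS2-/- cells, with SFRP2 at 2.92 times SFRP1. FRZB, also called SFRP3, was at 30.84 and 61.13 FPKM, and SFRP5 at 7.18 and 12.77 FPKM. The log2 fold change was 1.02 for SFRP2, 0.98 for FRZB and 0.82 for SFRP5, so SFRP2 and FRZB lie on opposite sides of the 2-fold line with nearly the same difference. With the libraries rescaled so that the median log2 ratio of abundant genes, 0.12, became 0, SFRP2 was at 0.91 and no longer 2-fold. SFRP4 was at 0.03 FPKM in WT cells and was listed at 0 in MEIS2-/- cells.

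The DKK proteins block LRP5 and LRP6 together with Kremen receptors. DKK1, itself a target of WNT signaling, was at 2.75 FPKM in WT and 8.10 FPKM in MEIS2-/- cells, with a log2 fold change of 1.52. DKK2 was at 0.08 and 1.19 FPKM, with 2.84 that became 1.02 with a pseudocount of 1 FPKM. DKK3, which differs from the others in not acting as a clear LRP blocker, was the most abundant at 29.47 and 21.44 FPKM. Of the Kremen receptors, KREMEN2 was at 14.58 and 5.11 FPKM and KREMEN1, named after its value was seen, at 5.36 and 6.44 FPKM. The listed antagonists summed to 170.99 FPKM in WT and 239.58 FPKM in MEIS2-/- cells, a ratio of 1.4. This sum covers SFRP and DKK genes only. Of the extracellular modifiers named below, SOST (25.55 and 3.11 FPKM) and IGFBP4 (703.06 and 184.09 FPKM) were lower, and SOSTDC1 and APCDD1 were higher. The median of the 7 antagonists compared was 0.98, of which 5 were higher and 2 lower. DKK2 entered only through its MEIS2-/- value, and with 1 FPKM required in both libraries the median was 0.90.

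R-spondins are secreted proteins that bind LGR4 or LGR5 and remove the ligases RNF43 and ZNRF3 from the membrane, which leaves more frizzled receptor in place. RSPO3, the R-spondin known for its role in vessels and in hemangioblasts, was at 12.92 FPKM in WT and 25.69 FPKM in MEIS2-/- cells, with 0.99 just under 2-fold. RSPO4, known from nail development, was at 10.93 and 2.95 FPKM, with −1.85. RSPO2 was at 8.73 and 6.12 FPKM and RSPO1 was listed at 0 in both libraries. RSPO3 was therefore 1.18 times RSPO4 in WT cells and 8.71 times RSPO4 in MEIS2-/- cells, while the summed R-spondin FPKM was 32.58 and 34.76. The receptors were lower in MEIS2-/- cells by less than 2-fold, LGR4 at 21.63 and 18.47 FPKM and LGR5 at 8.05 and 4.73 FPKM.

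**Figure D3:**
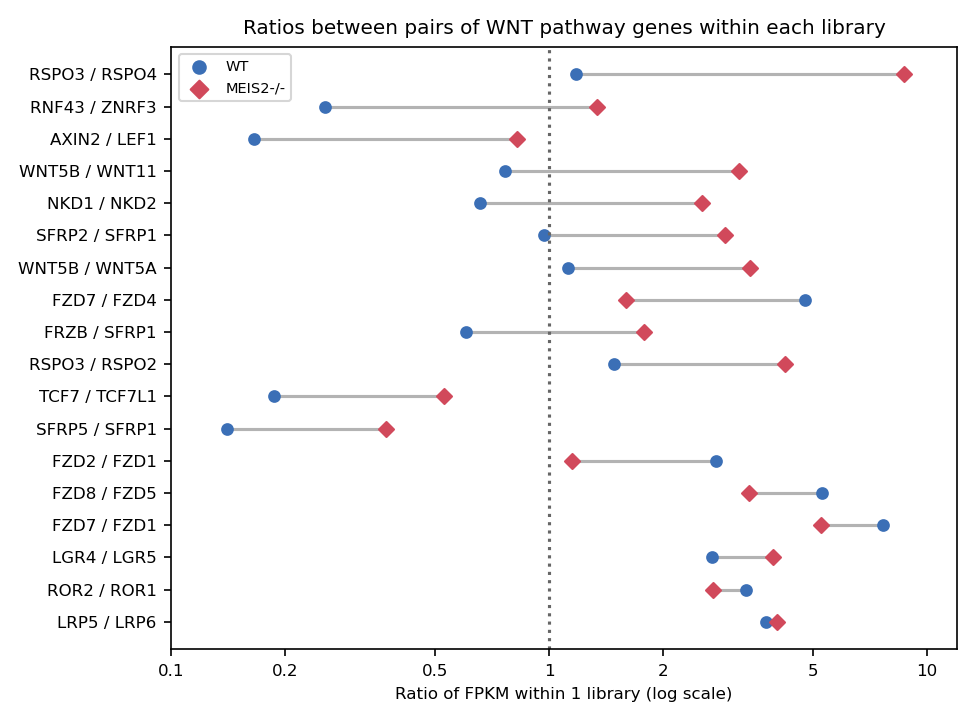
Ratio of the FPKM of the first to the second gene of 18 pairs within the WT library (blue circle) and within the MEIS2-/- library (red diamond), on a logarithmic axis; 1 library each, so no error bars, and the dotted line marks equal levels. RSPO3 over RSPO4 and RNF43 over ZNRF3 differ most between the libraries, and LRP5 over LRP6 least.

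The feedback targets did not move together. AXIN2, a scaffold of the destruction complex and the most used readout of canonical signaling, was at 5.41 FPKM in WT and 14.52 FPKM in MEIS2-/- cells, with a log2 fold change of 1.41. RNF43, the ligase that removes frizzled receptors, was at 1.33 and 6.04 FPKM, with 2.10, and only 1.27% of all compared genes had a larger log2 fold change. LEF1, a beta-catenin partner that is also expressed in mesoderm and endothelium, was at 32.83 and 17.70 FPKM, with −0.89. NKD1, an inhibitor of Dishevelled, was at 6.96 and 5.76 FPKM, and ZNRF3, the close relative of RNF43, was at 5.21 and 4.51 FPKM. AXIN2 and RNF43 were thus higher, LEF1 was nearly 2-fold lower, and NKD1 and ZNRF3 differed little. RNF43 was 0.255 times ZNRF3 in WT cells and 1.34 times in MEIS2-/- cells. Exons of RNF43 overlap those of SUPT4H1 on the same strand in the annotation. SUPT4H1 was far more abundant at 28.41 and 39.86 FPKM and had a log2 fold change of 0.49. Exons of AXIN2 overlap AC004805.1 on the same strand and those of LEF1 overlap the antisense gene LEF1-AS1, and for neither was a value used here.

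**Figure D4:**
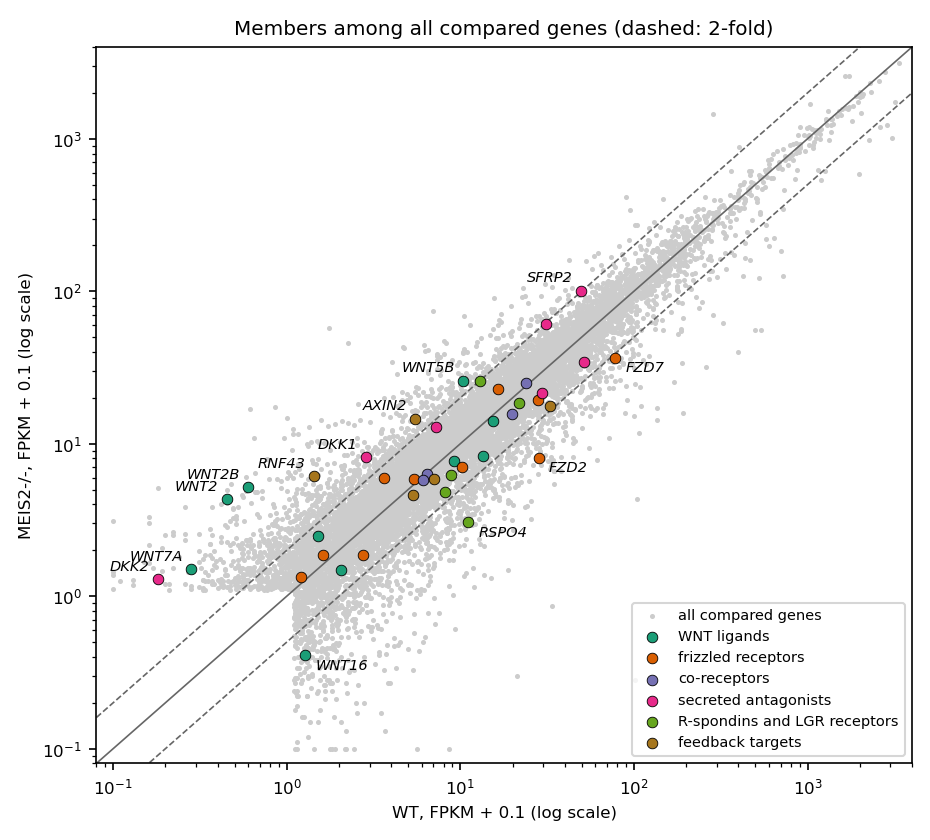
FPKM plus 0.1 in the WT library (horizontal, logarithmic) against the MEIS2-/- library (vertical, logarithmic) for the compared genes in grey and the 41 listed genes in colour by role; dashed lines mark 2-fold differences. Of the named genes, 9 lie on or above the upper dashed line and 4 below the lower one, and most listed genes lie within the grey cloud.

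Promoters in the RefSeq table were searched for short cores of the factors concerned. The table gives 250 bases before to 50 bases after each gene start on GRCh38.p14, and 34 of the 52 genes were matched, with 38 promoters. Searched on both strands, the TCF and LEF cores CTTTGAT and CTTTGAA occurred in 0 and 1 of these 38 promoters, against 2.62% and 4.43% of all 35116 promoters in the table. The MEIS core TGACAG occurred in 5 of the 38, a share of 13.2%, against 15.8% of all promoters. The single TCF and LEF core lay 95 bases before the start of DKK1, which was higher in MEIS2-/- cells. MEIS cores upstream of the start are shown for WNT16, which was lower, and for WNT3 and ROR1, which differed by less than 2-fold, so that promoters holding the same letters can be read beside unlike values. The other 2 matches began 4 bases before the start of WNT4, running across that start, and 42 bases after the start of WNT5B. WNT4 was below 1 FPKM in both libraries, and WNT5B was higher. Bases are printed in the direction of the gene, with the core in capitals (for ROR1 it reads on the opposite strand), and a match describes the letters only and not binding.
DKK1 (GRCh38.p14, plus strand, chr10:52314146-52314232): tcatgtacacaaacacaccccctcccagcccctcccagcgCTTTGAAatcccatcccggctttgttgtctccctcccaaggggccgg
WNT16 (GRCh38.p14, plus strand, chr7:121328750-121328829): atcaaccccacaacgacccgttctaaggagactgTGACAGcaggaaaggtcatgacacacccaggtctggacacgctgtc
WNT3 (GRCh38.p14, minus strand, chr17:46818796-46818881): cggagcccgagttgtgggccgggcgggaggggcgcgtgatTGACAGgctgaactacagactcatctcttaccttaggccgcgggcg
ROR1 (GRCh38.p14, plus strand, chr1:63773767-63773826): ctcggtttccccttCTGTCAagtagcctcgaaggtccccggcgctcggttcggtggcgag

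The other genes of the pathway were taken from 5 lists by role, 93 genes in all, of which 87 were compared. At least 2-fold lower in MEIS2-/- cells were 9 (10.3%, against 7.97% of all compared genes), and at least 2-fold higher were 12 (13.8%, against 7.84%). Of the 12 higher genes, 3 known targets, CDX1 among them, passed the filter only through their MEIS2-/- value. Each of these had to differ to some degree. Of 20 compared genes of the destruction complex and Dishevelled, 1 was at least 2-fold lower and 1 at least 2-fold higher (5% each, against the same 7.97% and 7.84%), and CTNNB1, which encodes beta-catenin, was at 134.21 FPKM in WT and 138.49 FPKM in MEIS2-/- cells. Past 2-fold were the Dishevelled-binding genes DACT3, at 31.50 and 10.62 FPKM, and DACT2, at 2.48 and 6.76 FPKM. All 19 genes of the planar polarity branch differed by less than 2-fold (0% lower and 0% higher, against the same 7.97% and 7.84%). Of 15 TCF factors and nuclear partners 0 were at least 2-fold lower (against 7.97%) and 1 was at least 2-fold higher (6.67%, against 7.84%). The latter was the corepressor TLE1, at 12.02 and 28.69 FPKM. The activating factor TCF7 was at 7.79 and 13.81 FPKM, the mainly repressing TCF7L1 at 41.60 and 26.16 FPKM, and TCF7L2 at 9.29 and 7.83 FPKM.

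Secretion and extracellular control were covered by a further list. PORCN, which attaches the lipid to WNT proteins, was at 36.59 and 32.19 FPKM, and WLS, which carries them to the surface, at 127.76 and 107.68 FPKM. Of its 16 compared genes, 4 were at least 2-fold lower (25%, against 7.97% of all compared genes) and 3 at least 2-fold higher (18.8%, against 7.84%). SOST, which encodes the LRP antagonist sclerostin, was at 25.55 FPKM in WT and 3.11 FPKM in MEIS2-/- cells, and its relative SOSTDC1 at 2.92 and 13.82 FPKM. IGFBP4, a carrier of insulin-like growth factors that also binds frizzled receptors, was at 703.06 and 184.09 FPKM. APCDD1, a membrane inhibitor of WNT signaling, was at 8.76 and 22.58 FPKM.

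Further known targets differed in both directions. Of 17 compared, 7 were at least 2-fold higher (41.2%, against 7.84% of all compared genes) and 4 at least 2-fold lower (23.5%, against 7.97%). CDX1 and 2 others of the 7 passed the filter only through their MEIS2-/- value. Of the 14 targets above 1 FPKM in both libraries 4 were higher and 4 lower by 2-fold or more. The shares of all such genes were 5.72% higher and 5.8% lower. The homeobox genes CDX1 and CDX2 were at 0.99 and 12.44 FPKM and at 4.83 and 21.24 FPKM, the streak factor TBXT at 2.44 and 10.74 FPKM, and MIXL1 at 2.33 and 6.47 FPKM. NKD2, the relative of NKD1, was at 10.65 FPKM in WT and 2.27 FPKM in MEIS2-/- cells. Lower too were the growth regulator MYC, at 54.12 and 20.22 FPKM, the homeobox gene MSX1, at 187.93 and 84.26 FPKM, and the mesoderm factor TBX6, at 5.38 and 2.03 FPKM. SP5, a direct target, was at 98.28 and 50.08 FPKM, just short of 2-fold lower, and these last 4 genes are named after their values were seen. TBXT and MIXL1 also belong to the streak markers. At least 2-fold lower were 6 of these 10 markers (60%, against 7.97% of all compared genes). Among the 8 markers above 1 FPKM in both libraries 4 were at least 2-fold lower, against 5.8% of all such genes. The endoderm factor HNF4A was at 6.40 and 29.08 FPKM, and the pluripotency factor NANOG at 17.13 and 70.78 FPKM. TTR, at 0.38 and 5.31 FPKM, passed the filter only through its MEIS2-/- value. These genes were all higher in MEIS2-/- cells. Their part in the levels of the WNT targets was not tested.

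**Figure D5:**
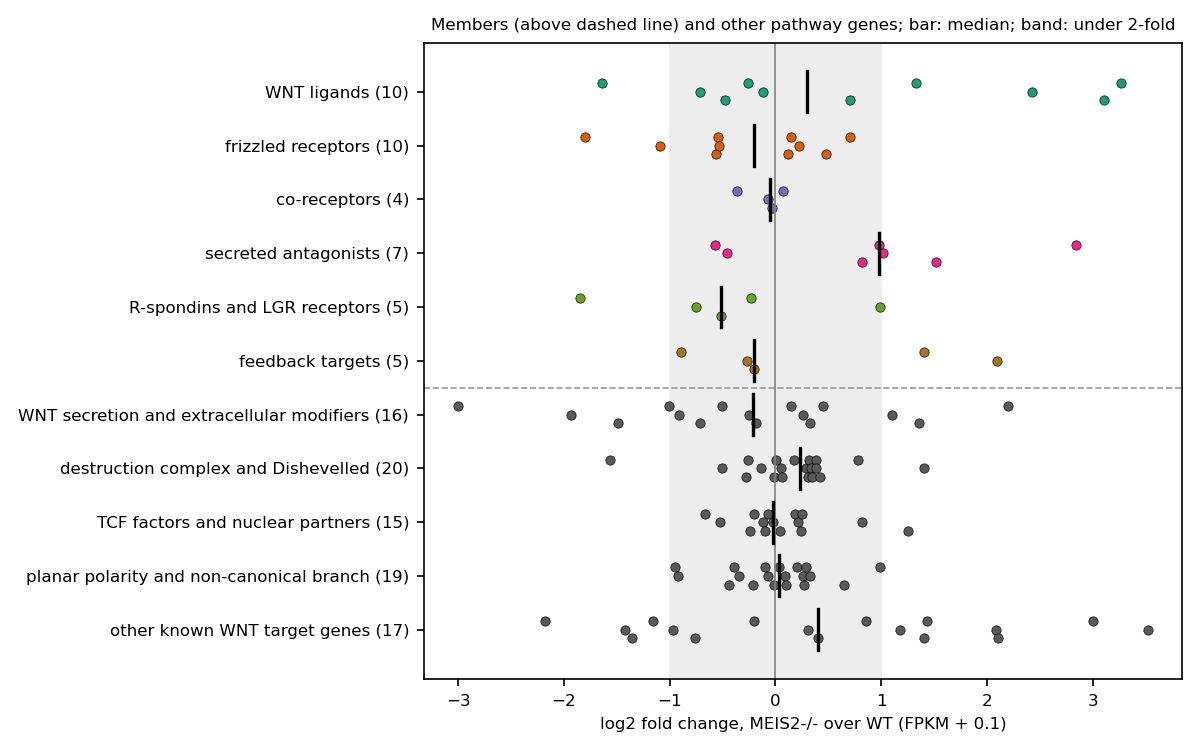
Log2 fold change of MEIS2-/- over WT for each compared gene, by class of listed genes (coloured, above the dashed line) and by list of other pathway genes (grey, below it), with the number compared in parentheses; the black bar is the median and the shaded band marks differences under 2-fold. Co-receptors and planar polarity genes stay inside the band, and ligands, extracellular modifiers and target genes reach beyond it on either side.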

How the data were processed

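RNA-Seq of 1 WT and 1 MEIS2-/- library was analysed. The authors deposited FPKM values with 2 decimals for 17397 genes, listed by NCBI Gene number with RefSeq transcripts. The submitters' processing notes name hg19, BWA, Bowtie and RSEM, with no versions or roles. The strand setting is not given in the sources used here, so reads of overlapping antisense genes (exons of 11 listed genes in GENCODE 29) cannot be told apart. Exons of 3 listed genes, AXIN2, FZD8 and RNF43, overlap another gene on the same strand, which a strand setting would not resolve. The FPKM sums were 447542 (WT) and 440651 (MEIS2-/-), and low values showed no clear whole-read steps (agreement 0.22 in both libraries, where 1 is complete, over 965 and 1050 single-transcript genes), so depth is unknown and no counting interval is given.

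Gene numbers were matched to symbols through the RefSeq gene table (17365 matched). Log2 fold changes used a pseudocount of 0.1 FPKM, genes that reached 1 FPKM in either library were compared, and 2-fold differences were counted. The listed genes and lists were chosen with earlier results of these data known. Named genes were all listed genes, up to 5 genes per other pathway list at 5 FPKM or more with the largest difference of at least 2-fold, and core factors and markers; SP5, MYC, MSX1, TBX6, KREMEN1 and the genes that share exons with listed genes were added after their values were seen, as were the gene pairs, sums and subgroups. Alternatives were other pseudocounts, filters, thresholds and scalings. The computation was tested on simulated data. Python 3.11.15, numpy 2.4.6, pandas 2.3.3 and matplotlib 3.10.9 were used.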

Additional observations from a re-analysis of the deposited data

How the results depend on the processing

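Under the 4 settings that can move a gene's own value (2 pseudocounts and 2 scalings), 158 of 164 values of the 41 genes kept their direction and their side of the 2-fold line, though the size of low genes moved with the pseudocount. The exceptions were WNT16 with a pseudocount of 1 FPKM (−0.73), SFRP2 with the median log2 ratio set to 0 (0.91) or TMM scaling (0.92), LEF1, which became 2-fold lower with the median log2 ratio set to 0, and LRP5, whose small positive value became −0.05 and −0.04 under those scalings. Both scalings lower every value by nearly the same amount, and the medians became −0.18 and −0.17 for the 41 genes, 0.18 and 0.19 for ligands, −0.32 and −0.31 for frizzled receptors, −0.16 and −0.15 for co-receptors, 0.87 and 0.88 for antagonists, −0.62 and −0.61 for R-spondin and LGR genes, and −0.32 and −0.31 for feedback targets. The ligand median was 0.18 with a pseudocount of 1 FPKM and without a filter, −0.12 with a filter of 5 FPKM and −0.19 with 1 FPKM required in both libraries, a setting chosen after seeing the data. The frizzled median was −0.53 with a filter of 5 FPKM. The counts are read against a background that moves with the setting. At 1.5-fold 7 of the 41 genes were lower and 14 higher, against 14.5% and 18% of all compared genes. At 4-fold 0 were lower and 5 higher, against 1.84% and 1.48%. These 5 were WNT2, WNT2B, WNT7A, DKK2 and RNF43. All but RNF43 entered the comparison only through their MEIS2-/- value, so this count partly reflects the filter. With 1 FPKM required in both libraries 36 listed genes remained. Of these, 3 were at least 2-fold lower and 5 at least 2-fold higher, against 5.8% and 5.72% of all such genes. Without WNT3 and WNT5B the ratio of the ligand sums was 1.1. The count of other pathway genes past 2-fold ranged from 18 to 24 around 21. Leaving out a replicate was not possible with 1 library per genotype.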
